A study of Mus musculus with 12 samples.

Results

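Lst1, Ear1 and Bcl2a1b are transcripts of white blood cells, and each had 1 named probe on the arrays used here to compare normal liver with liver lacking Hdac3. The 3 probes were selected by their identifiers, out of 33012 probes in the deposited value table, after earlier results of the same data were known. What brought them forward was their higher signal in Hdac3-null liver at postnatal day 28 (P28) and, for Lst1, its lower signal in control liver at P28 than at postnatal day 17 (P17). These differences are therefore given as a description without a test, and only the genotype difference at P17 is tested.

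Lst1 (leukocyte-specific transcript 1) encodes a small membrane protein of myeloid cells and lymphocytes. Its gene lies in the class III region of the mouse major histocompatibility complex on chromosome 17, where RefSeq places Aif1 on one side and the cytokine genes Ltb, Tnf and Lta on the other. Ear1 encodes a secreted ribonuclease of the eosinophil-associated family, a rapidly duplicated group of mouse genes whose products are stored in eosinophil granules. Bcl2a1b is 1 copy of the mouse A1 gene, an anti-apoptotic relative of Bcl2 that is induced by NF-kappaB and prolongs the life of neutrophils, mast cells and lymphocytes. Liver holds such cells in its sinusoids, and before and shortly after birth it is also a site of blood formation, which then recedes. In RNA of whole liver, fewer cells of a type and less RNA per cell cannot be told apart.

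The study pooled liver RNA of 5 mice of the C57B/6 strain and hybridised 12 ABI1700 arrays of 1 colour, on which labelled cRNA bound to a probe is read as emitted light. Each of the 4 groups (P17 control, P17 Hdac3-null, P28 control, P28 Hdac3-null) had 2 pools and 3 arrays. RNA of the first pool went onto a pair of arrays from different chip lots and RNA of the second pool onto 1 array, so that n = 2 pools per group. Control mice carried the Albumin-Cre transgene, whose promoter is active in hepatocytes and not in blood cells. The first control pools at both ages came from Hdac3 wild-type mice and the second P28 control pool from wild-type or heterozygous mice. For the second P17 control pool the labels give no genotype beyond control. Null pools came from livers without Hdac3. No probe carried the name Hdac3, so its loss was not checked here.

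Gene names were available for 311 of the 33012 probes, the members among them. Of 110 marker genes listed for 15 cell types, 6 had a named probe: Lst1 for leukocytes, Ear1 for eosinophils, Hba-a1 for erythroid cells, Krt23 for bile duct cells, and Mup1 and G6pc for hepatocytes. None of the listed genes of macrophages, neutrophils, monocytes, T cells, B cells or mast cells had one. The hepatocyte markers were bright in every group, with a mean log2 signal of 15.95 to 18.69 for G6pc and 12.98 to 20.58 for Mup1. The 12 columns of deposited values had 3 distributions of 4 arrays each. The second pools of all groups formed one set, with column medians of 854 to 863. The P17 first pools (405 to 411) and the P28 first pools (490 to 492) formed the others. Values were therefore quantile-normalised over all arrays before pools were compared, and each null-against-control difference of 1 pool number lies within 1 set.

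Bcl2a1b and Ear1 belong to families whose members can scarcely be told apart. RefSeq lists 4 Bcl2a1 genes on chromosome 9 and 5 Ear genes on chromosome 14, and in each family 1 gene alone had a named probe. The likeness extends to the promoters. Over the 256 aligned columns of their promoters, Bcl2a1a and Bcl2a1b were 99.2% identical. Bcl2a1b was 96.5% identical to Bcl2a1d over 256 columns and 95.7% to Bcl2a1c over 234. The alignments were local, so bases outside them do not enter these shares. The following stretches, from the RefSeq promoter table of build GRCm38.p6, show how alike the 4 copies are upstream of the annotated start. Capitals mark GAGGAAGT, a motif bound by the Ets factor PU.1 of myeloid and B cells.
Bcl2a1a, chr9:88956791-88956868, plus strand: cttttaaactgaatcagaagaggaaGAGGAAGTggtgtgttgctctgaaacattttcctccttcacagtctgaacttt
Bcl2a1b, chr9:89199100-89199177, plus strand: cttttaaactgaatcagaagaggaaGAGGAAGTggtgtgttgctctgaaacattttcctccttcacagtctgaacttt
Bcl2a1c, chr9:114329896-114329973, plus strand: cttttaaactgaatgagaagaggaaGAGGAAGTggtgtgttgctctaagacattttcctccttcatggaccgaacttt
Bcl2a1d, chr9:88731902-88731979, minus strand: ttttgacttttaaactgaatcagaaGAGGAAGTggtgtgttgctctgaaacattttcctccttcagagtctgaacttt

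The stretches of Bcl2a1a and Bcl2a1b are the same base for base. GAGGAAGT, searched on both strands of the 250 bases before the start, was present in all 4 Bcl2a1 promoters, on the strand of the gene, and in 2.44% of 32851 promoters in the table. It did not occur in the promoters of Ear1, Ear2, Ear6, Ear10 or Ear14, and the table holds no promoter of Lst1. Further motifs were searched in the same windows: the NF-kappaB motif of GGG and TTTCC with any 2 bases between (1.41% of all promoters), TGATAA of GATA factors (7.94%) and TTCNNNGAA of STAT factors (7.02%). None was found in a Bcl2a1 promoter or in that of Ear1, and the only match among all these genes was TTCNNNGAA in Ear14. A match of letters is a description and not a site. A lack of matches in these 250 bases, with the motifs as written, does not show that sites are absent.

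Ear1 and Ear2 have promoters that were 98.7% identical over 298 aligned columns, against 92.9% for Ear1 and Ear10 and 86.6% for Ear1 and Ear6. Ear1 and Ear14 were 95% identical, but over only 60 aligned columns. The first 120 bases of the Ear1 and Ear2 promoters are shown for the same reason, with capitals at the positions where the aligned copies differ.
Ear1, chr14:43819770-43819889, minus strand: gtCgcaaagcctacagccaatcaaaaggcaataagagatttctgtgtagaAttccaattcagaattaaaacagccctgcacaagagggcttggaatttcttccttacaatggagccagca
Ear2, chr14:44102404-44102523, plus strand: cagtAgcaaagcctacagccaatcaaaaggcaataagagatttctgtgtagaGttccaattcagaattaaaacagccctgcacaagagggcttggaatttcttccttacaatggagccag
Promoter likeness does not show what a probe binds, and transcript and probe sequences were not compared here. Signal of the Ear1 and Bcl2a1b probes is uncertain for the single gene, since it may stem from a near-identical copy.

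Lst1 was lowest in P28 control liver and highest at P17, with P28 null liver between. The normalised intensity in P17 control liver was 4910.3 and 2957.1 on the duplicate arrays of the first pool and 3419.6 in the second pool. P17 null liver gave 3460.9 and 2759.9, then 3686.2. Control and null arrays overlapped at P17.
In P28 control liver Lst1 read 1097.2 and 1542.1 in the first pool and 1104.7 in the second. The P28 null arrays read 2816.2, 2674.8 and 2871.3. The P28 null arrays lay below all P17 control arrays and overlapped with the P17 null arrays. Every null array at P28 was above every control array, and the P28 control arrays were the lowest of the 12.

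On the log2 scale the Lst1 means were 11.82 ± 0.11 in P17 control, 11.72 ± 0.18 in P17 null, 11.45 ± 0.05 in P28 null and 10.23 ± 0.17 in P28 control liver (SD, n = 2 pools each). The first 2 of these differed by less than the SD of P17 null liver. The gap between the P17 and P28 null means was 0.27 (SE 0.33). Null minus control at P28 was 1.23 (SE 0.33), a 2.34-fold higher level, and the pool values were 1.08 and 1.38. Between the ages, control liver dropped by 1.59 (SE 0.33), a 3.01-fold difference, with -1.55 and -1.63 in the pools. Lst1 was above an intensity of 891.5 on all 12 arrays. This intensity was taken as the detection level, since the share of values under it equals the share of scanner readings scored under 3. The scanner's signal-to-noise score for Lst1 ran from 1.22 to 9.77 over the 12 arrays and reached 3 on 9 of them. Single scores were not assigned to samples here, because the scanner columns carry no sample name. Each column of deposited values had the rank order of 1 scanner column, but this match was not used to assign scores. In the export of 4 arrays attached to the P17 first pools the lowest Lst1 score was 5.05. In the export attached to the P28 first pools 2 of 4 arrays reached 3. A copy of that export is also attached to the second P28 null pool, whose deposited values have the distribution of the other second pools, and the value table was followed.

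Ear1, like Lst1, was lowest in P28 control liver. In P17 control liver its intensity was 6139.5 and 5445.7 on the duplicates and 7185.7 in the second pool. In P17 null liver it was 5433.6 and 5320.4, then 8033.4. These groups overlapped, with the second pool highest in both.
P28 control liver read 450.3 and 1994.9 on the duplicate arrays and 2937.9 in the second pool. P28 null liver read 4908.3 and 5115.7, then 9677.2. No control array at P28 reached the lowest null array.

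The Ear1 means were 12.65 ± 0.22, 12.68 ± 0.41, 10.70 ± 1.15 and 12.77 ± 0.67 log2 signal in P17 control, P17 null, P28 control and P28 null liver (SD, n = 2 pools). The 3 higher means lay closer to each other than the SD of any of these groups. The difference at P28 was 2.06 (SE 0.60), or 4.17-fold, with 2.40 and 1.72 in the pools. With age, control liver dropped by 1.95 on the log2 scale (SE 0.60), and null liver differed by 0.08 (SE 0.60) between ages. The first pools of the 2 ages lie in different run sets, and with run set as a block the Ear1 value in control liver was -1.53, that of Lst1 -1.66 and that of Bcl2a1b -0.74. The duplicate arrays of the first P28 control pool lay 2.15 apart for Ear1, above the gap that 95% of detected probes stayed under on that pair (1.48, median gap 0.30). In P28 control liver 2 of 3 arrays were at or above the detection level. With the dim array raised to that level the difference at P28 was 3.52-fold. On the log2 scale it was 1.25 without the first P28 control pool and 2.88 without the second.

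Bcl2a1b was highest in null liver at both ages. P17 control liver gave 4071.2 and 4612.6 on the duplicates and 3937.9 in the second pool. P17 null liver gave 6489.6 and 6601.3, then 12854.9. All P17 null arrays were above all P17 control arrays, and the second null pool stood well above the first.
In P28 control liver the values were 7141.9 and 3813.4, then 2139.7. P28 null liver gave 13980.2 and 12401.9, then 17307.2. The 3 P28 null arrays did not overlap with the P28 controls, whose own spread was wide.

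Group means of Bcl2a1b were 12.01 ± 0.10 in P17 control, 13.16 ± 0.69 in P17 null, 11.71 ± 0.91 in P28 control and 13.88 ± 0.28 in P28 null liver (log2 signal, SD, n = 2 pools). P28 null and P17 null liver differed by 0.72 (SE 0.53) and the control groups by -0.31 (SE 0.53), with pool values of 0.27 and -0.88 that point opposite ways. Null minus control at P28 was 2.18 (SE 0.53), or 4.52-fold, and the pool values were 1.34 and 3.02. Without the first P28 control pool it was 2.82, and without the second 1.53. Bcl2a1b passed the detection level on all 12 arrays, and its scanner score ran from 6.81 to 43.77, so that it reached 3 on each array.

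**Figure D1:**
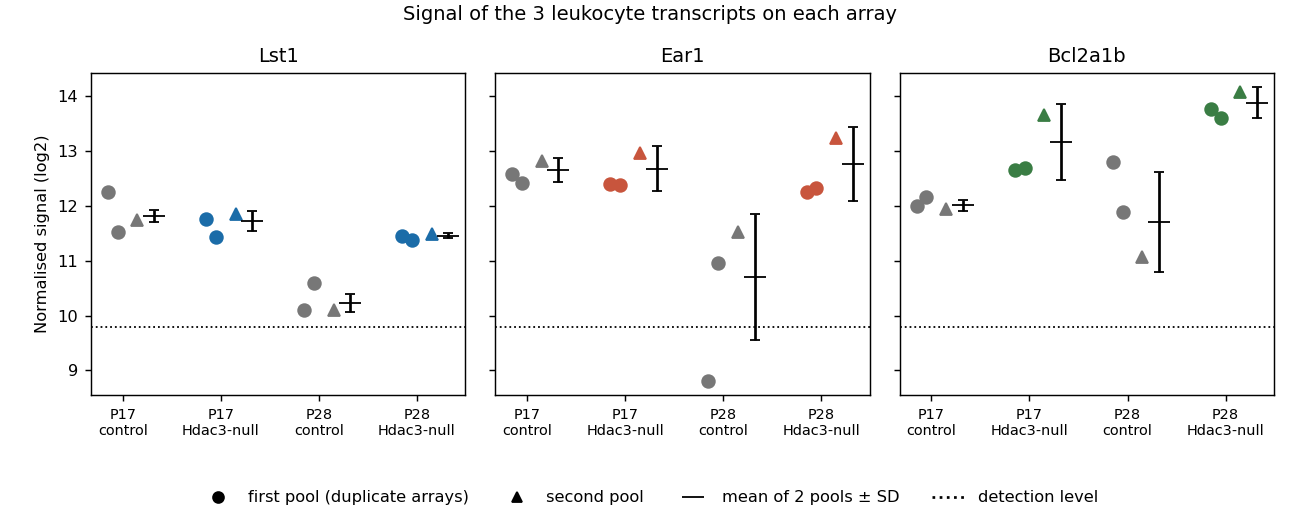
Normalised log2 signal (vertical axis) of Lst1, Ear1 and Bcl2a1b on each of the 12 arrays by group. Circles are the duplicate arrays of the first pool, triangles the second pool, and bars the mean of 2 pools with its SD; the dotted line is the detection level (9.80). Lst1 and Ear1 are lowest in P28 control liver, and 1 Ear1 array falls below the detection level.

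The genotype contrast at P17, which the choice of the probes did not use, gave no call for the 3 transcripts. Lst1 differed between null and control liver by -0.10 (SE 0.33, 95% interval -0.85 to 0.66), with pool values of -0.30 and 0.11. Ear1 differed by 0.03 (SE 0.60, interval -1.36 to 1.42), with -0.10 and 0.16. Bcl2a1b differed by 1.15 (SE 0.53, interval -0.07 to 2.38), a 2.22-fold higher mean, and the pool values were 0.59 and 1.71. Each had an adjusted p of 1 in limma over all probes, and the unadjusted p in the limma fit was 0.77, 0.96 and 0.062. The test called 0 of the 3, against 0.0454% of all 33010 probes tested (15 probes, 13 higher and 2 lower, or 5 with the replicate block by pool).

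The SE of Ear1 at P17 was 0.60 in this fit, 0.38 with the replicate block by pool and 0.30 with blocks by run set. For Lst1 it was 0.33, 0.28 and 0.27, and for Bcl2a1b 0.53, 0.54 and 0.52. These fits draw the spread from all 8 pools, including the P28 pools used in the choice. With only the P17 pools in the fit the SE was 0.37 for Ear1, 0.32 for Lst1 and 0.43 for Bcl2a1b. Both P17 null pools were above both control pools for Bcl2a1b, as for 16.7% of all probes. At P28 this held for all 3 transcripts, and for 17.1% of all probes. Both P17 control pools were above both P28 control pools for Lst1 and Ear1, against 18.9% of all probes. The contrasts at P28 and between ages in control liver served in the choice, so nothing is read from their counts.

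**Figure D2:**
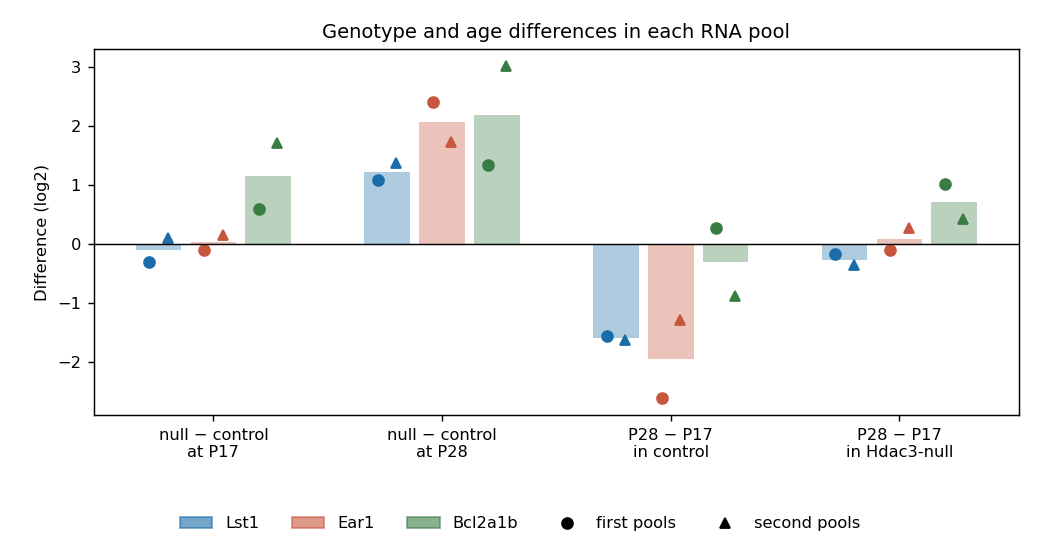
Differences in log2 signal between genotypes at each age and between ages in each genotype, for each transcript. Bars are the mean of 2 pool differences, circles the first pools and triangles the second. Lst1 and Ear1 lie near 0 at P17 and at 1.23 and 2.06 at P28, while Bcl2a1b is above 0 at both ages in both pools.

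The change of the genotype difference from P17 to P28 was 1.32 (SE 0.46) for Lst1, 2.03 (SE 0.85) for Ear1 and 1.02 (SE 0.75) for Bcl2a1b on the log2 scale. It holds the P28 difference that led to the choice and is given without a test. For Lst1 the pools gave 1.38 and 1.27, for Ear1 2.51 and 1.56, and for Bcl2a1b 0.74 and 1.31. The P28 genotype difference and the age difference in control liver share the P28 control pools, so the high value of one and the low value of the other are not separate observations.

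The P28 differences, for which the probes were chosen, are placed among all probes as a description only. A larger rise at P28 was seen in 3.91% of 33010 probes for Lst1, in 0.80% for Ear1 and in 0.65% for Bcl2a1b. Among the 12901 probes above the detection level on every array of at least 1 group, these shares were 6.61%, 1.90% and 1.58%. At P17, 57.5% of probes had a higher difference than Lst1, 46.2% than Ear1 and 2.40% than Bcl2a1b. The median difference over all probes was -0.01 at P17 and 0.00 at P28, and over the 3 transcripts 0.03 and 2.06. In control liver 1.08% of probes dropped further with age than Lst1 and 0.43% further than Ear1.

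**Figure D3:**
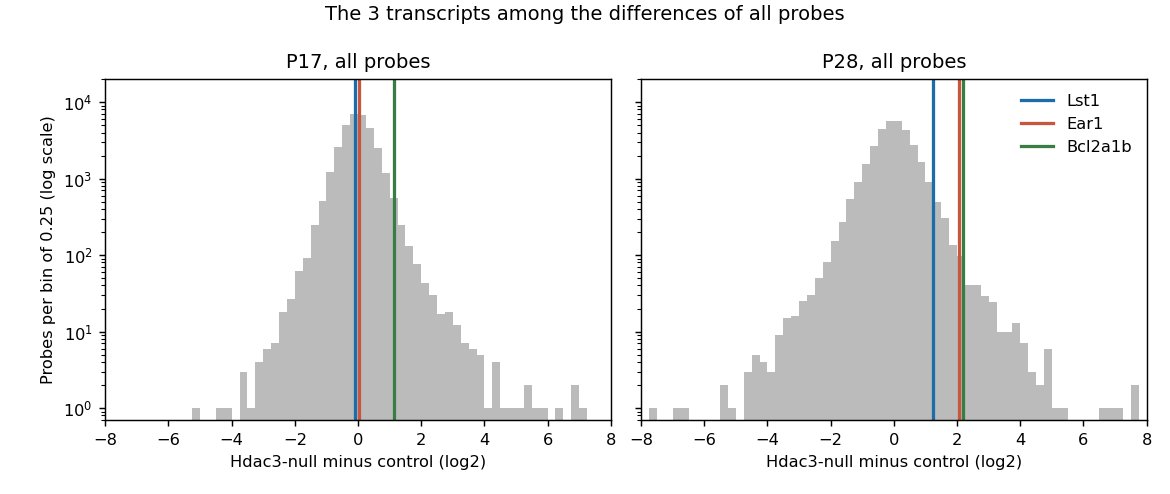
Number of probes (log scale) by the null-minus-control difference in log2 signal at P17 and at P28, over 33010 probes. Coloured lines mark the 3 transcripts. At P28 all 3 lie in the upper tail, and at P17 Lst1 and Ear1 lie in the centre.

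The likeness of the 3 profiles is in part built in, since the P28 values that led to the choice are among the points. After the mean of each pool number was taken off, Lst1 and Ear1 correlated with r = 0.902 over the 8 pools, Lst1 and Bcl2a1b with r = 0.495, and Ear1 and Bcl2a1b with r = 0.509. The 8 points share runs and groups, and these values are a description. Among 133 named probes above the detection level, the one most like Lst1 (r = 0.915) and also most like Ear1 (r = 0.922) was Tnfsf13, which encodes APRIL, a cytokine of myeloid cells that supports plasma cells. Its log2 signal was 10.87 ± 0.71 in P17 control, 11.02 ± 0.32 in P17 null, 9.10 ± 0.04 in P28 control and 10.53 ± 0.49 in P28 null liver (SD, n = 2 pools). It reached the detection level on 1 of 3 P28 control arrays and on all arrays of the other groups. Tnfsf13 was lower in P28 control liver by the choice itself, since it was picked for this likeness.

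Next for Lst1 were Ear1 and G6pc, an enzyme of glucose release by hepatocytes (r = 0.867), and for Ear1 they were Lst1 and Rasd1, a Ras-related gene induced by glucocorticoids (r = 0.871). G6pc, like Lst1, was lowest in P28 control liver, and it was picked for its likeness. At P17 null minus control was -1.10 for G6pc (pool values -1.27 and -0.93) and -0.10 for Lst1 (-0.30 and 0.11). Nearest to Bcl2a1b were Lgals1, which encodes galectin-1 (r = 0.916), Acyp2, an acylphosphatase (r = 0.914), and Lgals7, which encodes galectin-7 (r = 0.900). With pool number left in, Acyp2 dropped to r = 0.692, while Lgals1 stayed at 0.906 and Lgals7 at 0.881. Lgals1 stood at 12.90, 14.51, 12.82 and 15.37 in P17 control, P17 null, P28 control and P28 null liver. This is the order of ages and genotypes of Bcl2a1b, and it is in part built in, since Lgals1 was picked for this likeness.

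**Figure D4:**
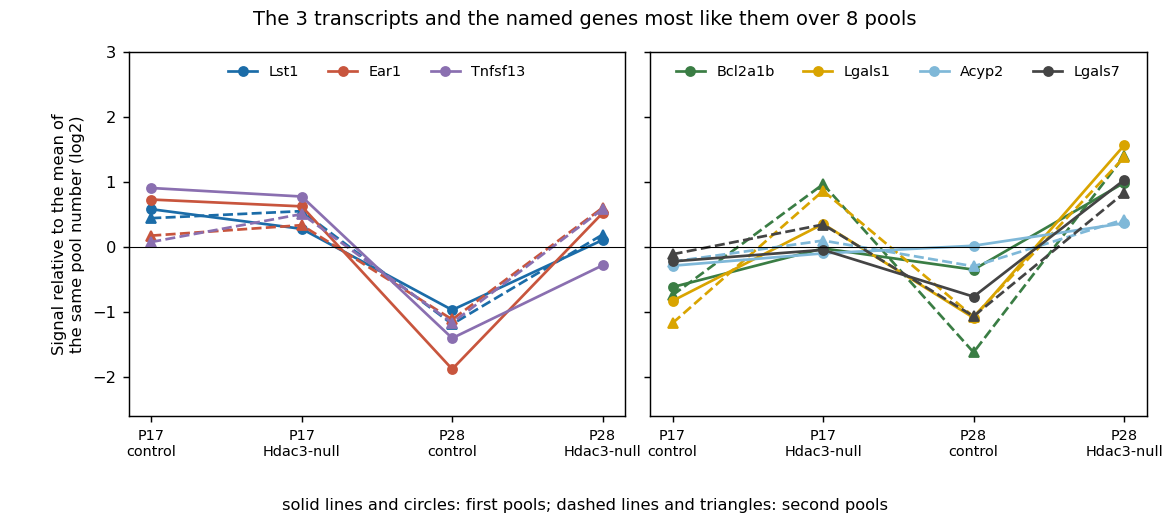
Log2 signal relative to the mean of the same pool number across the 4 groups, for Lst1 and Ear1 with Tnfsf13 (left) and for Bcl2a1b with Lgals1, Acyp2 and Lgals7 (right). Solid lines and circles are first pools, dashed lines and triangles second pools; lines join groups of 1 pool number. On the left P28 control liver is lowest, and on the right Bcl2a1b, Lgals1 and Lgals7 are highest in P28 null liver.

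Other immune genes gave few readable values. A list of 15 such genes with 16 probes was drawn up from the names on the array. Limma called 0 of the 16 at P17 and 0 at P28, against 0.397% of all probes at P28; unadjusted p fell under 0.05 for 0 and 2 of them, and for 4.54% and 9.32% of all probes. Their median difference was 0.04 at P17 and 0.13 at P28, with a range at P28 of -0.93 to 1.43, the highest being Tnfsf13. Both pools were higher in null liver at P28 for 6 of the 16 probes, against 28.8% of all probes, and lower for 4, against 28.5%. A total of 11 probes did not pass the detection level on every array of any group.

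The T-cell-zone chemokine gene Ccl19 differed by 0.25 at P28 (SE 0.40), and the class Ib histocompatibility genes H2-Q7 and H2-Q8 by 0.01 (SE 0.32) and -0.56 (SE 0.42). The RNA sensor gene Tlr7 was dim in all groups, with means of 7.74 to 9.46, and differed by 0.89 at P28 (SE 0.61). Gab2, a signalling adaptor of blood cells, was dim too and differed by 0.89 (SE 0.37). Other dim probes of the list had a lower mean in null liver at P28. The difference was -0.93 for Klri2 (SE 0.58), -0.85 for Fpr-rs6 (SE 0.57) and -0.65 for Nlrp3 (SE 0.56). The pools disagreed in sign for Klri2 (0.22 and -2.08) and Nlrp3 (0.11 and -1.41), while Fpr-rs6 gave -1.21 and -0.48. Ifne, dim as well, was higher by 0.70 (SE 0.45), with 0.42 and 0.99 in the pools. Over the 16 probes, 6 were higher in both pools and 4 lower in both.

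The only listed red blood cell marker with a named probe, Hba-a1, differed between the genotypes by less than its SE at both ages. Hba-a1, which encodes alpha-globin and has near-identical copies itself, had a log2 signal of 19.65 ± 0.12 in P17 control, 19.78 ± 0.36 in P17 null, 19.26 ± 0.03 in P28 control and 19.39 ± 0.17 in P28 null liver. Null minus control was 0.12 (SE 0.34) at P17 and 0.13 (SE 0.34) at P28. The 3 leukocyte transcripts gave 1.23 to 2.18 at P28, but they were chosen for that difference, so the gap is in part built in. Between the ages Hba-a1 differed by -0.40 in control and -0.38 in null liver (SE 0.34 for each). Krt23, a keratin of bile duct and progenitor cells, gave -1.21 at P17 (SE 0.61) and, at P28, -0.91 (SE 0.61). The part of a change in blood cell content in the values of Lst1, Ear1 and Bcl2a1b was not tested, and no other leukocyte marker of the lists had a named probe.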

How the data were processed

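The members and lists were chosen with earlier results of these data known. The authors' deposited value table holds intensity on a linear scale; background correction, centring and software are not given in the sources used here. Each column had the rank order of 1 scanner column (next rho at most 0.877). Per the file headers, 3 scanner exports hold intensity and a signal-to-noise score for 4 arrays each. Their 52 columns name no sample and were assigned to none. Control spots were left out.

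Intensities were quantile-normalised over 12 arrays, set to at least their 5th percentile (174.7), log2-transformed, and the duplicate arrays of a pool averaged. limma 3.58.1 in R 4.3.3 (lmFit, eBayes; 4 groups, 8 pools, 4 residual degrees of freedom) tested 33010 probes with Benjamini-Hochberg adjustment at 0.05, and was tested on simulated data. Because scanner columns were not matched to samples by their values, the detection level is the intensity (891.5, log2 9.80) under which 58.6% of values lie, the share of scanner readings scored under 3. The number of pools limits precision, with 2 pools of 5 mice per group and their runs. Each SE and p-value uses the spread of all 8 pools, P28 pools included, moderated over all probes by eBayes. Pool numbers were checked for pairing: first-minus-second-pool differences correlated between groups with r = 0.52 to 0.649, and a replicate block by pool was fitted as well. Probe names came from RefSeq accessions without version. The genes named are the 3 members, listed markers and family members with a named probe, and for each member the 3 named probes with the highest r; the immune list was added from the array's names. Sequences and neighbours are from RefSeq, GRCm38.p6; promoters were aligned locally. Tried alternatives were normalisation, background, floor, filter, duplicates, blocks, pools left out and the eBayes settings.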

Additional observations from a re-analysis of the deposited data

How the results depend on the processing

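At P17, 15 probes were called. The count was 2 on the deposited values, 9 with technical replicate 2 alone, 5 with the replicate block by pool, 0 when the P28 pools were left out of the fit, and 0 when blocks were run sets. It was 101 over probes above the detection level, 126 with trend and robust eBayes, and 392 for a replicate block taken from the labelled number on unaveraged arrays, which treats duplicate arrays as samples. Leaving out 1 of the 8 pools gave 0 to 5. The cause of these shifts was not tested. None of the 3 transcripts was called at P17 under any of the 20 alternatives (lowest adjusted p 0.50 in limma).

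The sign of the smallest P17 differences was not stable. Lst1 turned from -0.10 to 0.0044 with technical replicate 2 alone, and ranged from -0.22 to 0.030 without 1 pool. Ear1 turned from 0.03 to -0.0077 with technical replicate 1 alone and to -0.016 with the replicate block by labelled number, and ranged from -0.26 to 0.32 without 1 pool. Bcl2a1b stayed between 0.66 and 1.64. At P28 the difference stayed above 0 in all 20 alternatives, at 1.09 to 1.37 for Lst1, 1.25 to 2.88 for Ear1 and 1.53 to 2.82 for Bcl2a1b. The probes were chosen for this difference, and their P28 null arrays all lay above the P28 control arrays. Nothing is therefore read from the kept sign. For Lst1 the P28 difference was 1.37 with technical replicate 1 alone and 1.09 with technical replicate 2 alone. The replicate block by pool changed no other call. The age difference in control liver stayed below 0 for Lst1 (-1.90 to -1.28) and Ear1 (-2.77 to -1.13), and for Bcl2a1b ran from -0.95 to 0.34. It rests on the P28 control pools used in the choice, so its kept sign for Lst1 and Ear1 is a description only. Scaling to the 75th percentile moved the median age difference of all probes to 0.20 in control and 0.22 in null liver, and that of Lst1 in control liver to -1.54. The immune list had 0 calls among its 16 probes at either age under all alternatives. Over all probes the count at P17 was 0 to 392 under these alternatives, and 0.397% were called at P28 in the fit reported above. At such shares 0 of 16 says nothing about the list. Signal over background limits the P28 control values of Ear1, with 1 of 3 arrays under the detection level. It limits Lst1 as well, whose scanner score reached 3 on 9 of 12 arrays, against 11 of 12 for Ear1.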
